A study of Homo sapiens with 6 samples.

Results

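IRF1, IRF2, IRF3, IRF5, IRF7 and IRF9, 6 of the interferon regulatory factors, were examined together with STAT2 and ZBED2 in PANC1, a human pancreatic carcinoma cell line. These 8 of the 20461 protein-coding genes in the expression table were listed by name, and the list was chosen from measured values of the same RNA-seq libraries. Their RNA differences between gemcitabine and vehicle, and the number that met the criteria for a call, are therefore given as a description and not as a test. The treatment was 48 h of 50 nM gemcitabine, a deoxycytidine analogue that stops DNA replication, begun a day after plating, and control cells had 0.1% DMSO as vehicle. RNA-seq was done on 2 biological replicates of each condition. DNaseI-seq, which marks open chromatin, was done on 1 library of each condition. The same treatment conditions applied as for RNA-seq. All cells came from 1 line, so the 2 libraries of a condition measure the spread between cultures and not between tumours, and in bulk RNA fewer cells of a type and less RNA per cell cannot be told apart.

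Interferon regulatory factors and STATs are the transcription factors that carry interferon signals to DNA. IRF3, IRF5 and IRF7 are activated downstream of receptors that sense foreign or misplaced nucleic acids and drive transcription of interferon genes. Secreted interferon then activates STAT2, which joins IRF9 in the complex ISGF3 that binds interferon-stimulated response elements (ISREs), while other STAT complexes bind GAS elements, among them the one in the IRF1 promoter. IRF1 activates and IRF2 mostly represses genes through ISRE-like sites, and ZBED2, a BED-type zinc finger factor, is known to compete with IRF1 at such sites in pancreatic cancer cells.

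The 4 RNA-seq libraries held 13194533 to 15766237 fragments on genes, so that 3 fragments of a gene amounted to 0.19 to 0.227 CPM (fragments of the gene scaled to a common library total). The keratins KRT7, KRT8 and KRT18 of ductal epithelium were abundant in every library, and the 6 ductal markers summed to 2367 to 2624 FPKM (fragments relative to transcript length and library size). The other ductal markers were low, with KRT19 at 3.05 to 6.91 FPKM, EPCAM at 2.09 to 4.29 FPKM and SOX9 at 3.13 to 3.9 FPKM. VIM, a mesenchymal marker, stood at 385 to 476 FPKM. All 9 markers of immune cells were under 1 FPKM in every library. Their sum ran from 0.625 to 0.775 FPKM in vehicle and from 1.01 to 1.18 FPKM after gemcitabine, CD3E was listed at 0 throughout, and the part of this difference in the results on the interferon factors was not tested. The libraries are named replicate 1 and replicate 2 after the index in the deposited table, and no source links that index to the numbering in the labels.

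Among the 8 genes, ZBED2 had the largest fold change fitted to fragment counts, from the lowest level, and with limma on log2(FPKM + 1) its log2 fold change (1.26) was below that of IRF1 (1.58). IRF1, IRF7, STAT2 and IRF9 were also higher after gemcitabine, IRF3 was higher by less, and IRF2 and IRF5 differed by less than 1 standard error (SE) of the fitted difference. A gene was called when edgeR's adjusted p was under 0.05, its fold change was over 1.5, its mean FPKM was at least 0.1 in 1 condition and its mean FPKM differed by at least 1. Of the 8 genes 5 met these criteria as higher, none as lower, and 3 did not meet them. Of the 14854 genes tested, 5.69% were called higher and 4.43% lower. The paper applied the same thresholds to Cuffdiff results and reported fewer genes in each direction. Because the 8 genes were chosen from this contrast, nothing is read from their share. All 8 had enough fragments to be tested. The median fitted log2 fold change was 1.01 over the 8 genes and 0.0068 over all genes tested.

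**Figure D1:**
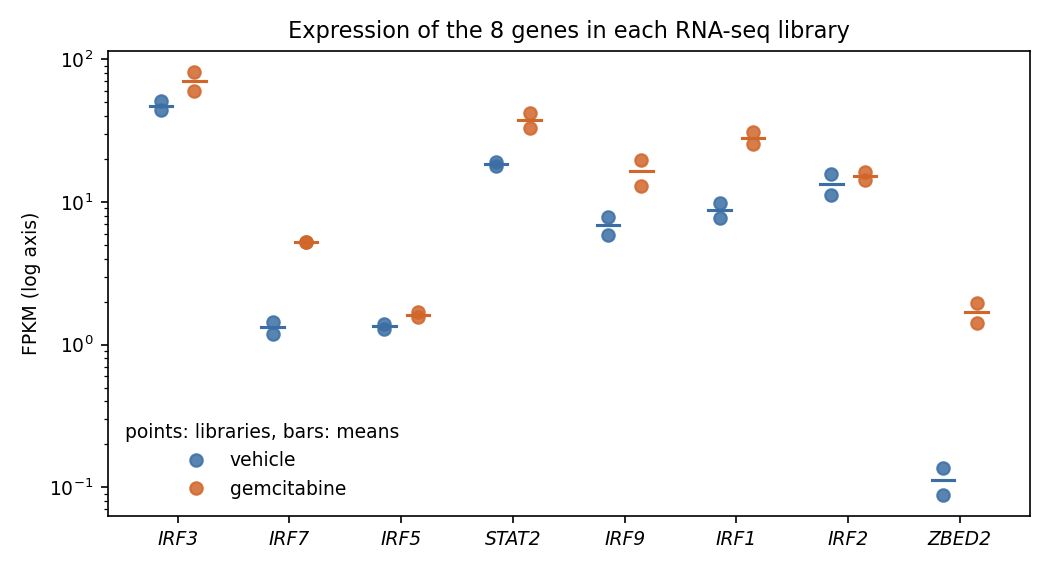
FPKM of each of the 8 genes on a log axis, with vehicle libraries in blue, gemcitabine libraries in orange and short bars at the mean of the 2 libraries. The conditions overlap for IRF2 and are separate for the other genes, with ZBED2 at 0.089 and 0.137 FPKM in vehicle and at 1.95 and 1.41 FPKM after gemcitabine.

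IRF3 (ENSG00000126456.11), the constitutively present factor that TBK1 phosphorylates, had the highest level per length of the 8 genes in both conditions. Its estimated fragments were 429 and 413 in the vehicle replicates and 478 and 467 in the gemcitabine replicates. Its FPKM was 43.8 and 50.6 in vehicle and 81.5 and 59.5 after gemcitabine. Both gemcitabine libraries were above both vehicle libraries, with a wide gap between the gemcitabine libraries in FPKM and almost none in fragments. Its fitted log2 fold change was 0.28 (SE 0.09), a 1.21-fold difference that fell short of the fold criterion. In FPKM the ratio of the means was 1.49. IRF3 shares 734 bases of exon with BCL2L12 on the opposite strand in the GENCODE annotation used here. BCL2L12 held 462 and 474 fragments in vehicle and 575 and 478 after gemcitabine, and whether the counting used strand is not given in the sources used here.

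IRF7 (ENSG00000185507.14), the factor that amplifies the interferon response and is itself an interferon target, was near the lower end of the 8 genes in vehicle. It had 31 and 40 fragments in the vehicle replicates and 87 and 84 in the gemcitabine replicates. Its FPKM was 1.19 and 1.45 in vehicle and 5.26 and 5.22 after gemcitabine. The libraries of the conditions did not overlap, and the gemcitabine libraries were nearly equal. For IRF7 the fitted log2 fold change was 1.38 (SE 0.23), or 2.6-fold, whereas the ratio of mean FPKM was 3.96.

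The distance between these measures was larger for IRF7 than for the other 7 genes. The log2 ratio of FPKM exceeded the log2 ratio of fragments per library total by 0.49 for IRF7. Over all genes this excess had a median of 0.01 and quartiles of -0.06 and 0.11, and its 5th and 95th percentiles were -0.46 and 0.65. Dividing CPM by FPKM gives an implied length in kb. For IRF7 it was 1.72 and 1.75 kb in vehicle and 1.25 and 1.21 kb after gemcitabine, which restates the gap between the measures. The isoforms behind these values were not analysed here. For ZBED2 the excess was 0.01, with implied lengths of 2.22 and 2.32 kb in vehicle and 2.29 and 2.25 kb after gemcitabine.

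IRF5 (ENSG00000128604.14), which acts downstream of Toll-like receptors and MYD88, was low in every library. Its fragments were 41 and 45 in vehicle and 37 and 35 after gemcitabine, while its FPKM was 1.29 and 1.40 in vehicle and 1.68 and 1.56 after gemcitabine. The gemcitabine libraries were thus the lower pair in fragments and the higher pair in FPKM, without overlap either way. The fitted log2 fold change was -0.14 (SE 0.26), and the ratio of mean FPKM was 1.2. The excess of the FPKM ratio over the fragment ratio was 0.29 on the log2 scale for IRF5. The direction of its difference accordingly depended on the measure.

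STAT2 (ENSG00000170581.8), the STAT of ISGF3 that binds IRF9, held more fragments than any other of the 8 genes. It had 594 and 639 fragments in the vehicle replicates and 1260 and 1052 in the gemcitabine replicates. Its FPKM was 17.8 and 19.1 in vehicle and 42.2 and 32.8 after gemcitabine. Each gemcitabine library exceeded each vehicle library by far more than the vehicle libraries differed from each other. The fitted log2 fold change was 1.02 (SE 0.09), and both measures gave a 2.03-fold difference. Leaving out 1 library at a time moved the fitted value between 0.90 and 1.13.

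IRF9 (ENSG00000213928.4), the DNA-binding subunit of ISGF3, had a GAS match just before its start, and that stretch is shown because the same bases also lay inside both of its DNaseI peaks. The sequence is from RefSeq on GRCh38.p14, chr14:24161187-24161225 on the plus strand, covering 78 to 40 bases before the start, with the GAS match in capitals.
IRF9: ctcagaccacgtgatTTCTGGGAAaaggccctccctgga

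IRF9 had 90 and 70 fragments in the vehicle replicates and 166 and 132 in the gemcitabine replicates, and its FPKM was 7.84 and 5.90 in vehicle and 19.8 and 12.9 after gemcitabine. The conditions did not overlap, but the replicates of each were further apart than those of STAT2. The fitted log2 fold change was 1.01 (SE 0.19), or 2.01-fold. No limma fit to FPKM called IRF9. Leaving out 1 library at a time moved its log2 fold change from 0.81, without vehicle replicate 2, to 1.24, without vehicle replicate 1. IRF9 was not called without vehicle replicate 2. IRF9 shares 1544 bases of exon on its own strand with ENSG00000259529, to which 0 and 3 fragments in vehicle and 8 and 0 after gemcitabine were assigned, so its counts carry some uncertainty from the division of reads.

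IRF1 (ENSG00000125347.8), the activator of guanylate-binding protein, immunoproteasome and antigen presentation genes, had matches to GAS and to the kB consensus, the binding sequence of NF-kB factors, before its start. The stretch with both is shown from RefSeq on GRCh38.p14, chr5:132490799-132490912 on the minus strand, from 139 to 26 bases before the start and written in the direction of transcription. The first run of capitals is the GAS match and the second the kB match.
IRF1: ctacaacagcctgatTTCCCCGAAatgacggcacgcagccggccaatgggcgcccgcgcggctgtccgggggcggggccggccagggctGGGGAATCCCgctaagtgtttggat

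IRF1 had 126 and 168 fragments in the vehicle replicates and 391 and 345 in the gemcitabine replicates. Its FPKM was 7.69 and 9.89 in vehicle and 30.9 and 25.5 after gemcitabine. The higher vehicle library was below the lower gemcitabine library by a wide margin on both scales. From fragments the log2 fold change was 1.44 (SE 0.13), or 2.71-fold, and the ratio of mean FPKM was 3.21. Leaving out 1 library at a time gave log2 values from 1.29 to 1.63, the range being set by the spread of the vehicle libraries. IRF1 shares 486 bases of exon with ENSG00000283782 on the opposite strand, a gene for which no fragments were analysed here.

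IRF2 (ENSG00000168310.5), the counterpart that occupies the same sites as IRF1, showed nearly the same level in both conditions. It had 314 and 345 fragments in vehicle and 305 and 310 after gemcitabine, with 11.2 and 15.7 FPKM in vehicle and 14.2 and 16.1 FPKM after gemcitabine. It was the only one of the 8 genes whose conditions overlapped when the libraries were scaled. The fitted log2 fold change was 0.01 (SE 0.10), and leaving out single libraries moved it from -0.01 to 0.06. In vehicle the mean FPKM of IRF2 exceeded that of IRF1 (13.4 and 8.79), and after gemcitabine the order was the opposite (15.1 for IRF2 and 28.2 for IRF1), without overlap of the libraries in either condition.

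ZBED2 (ENSG00000177494.5), the factor that competes with IRF1, was at the limit of detection in vehicle. Its fragments were 3 and 5 in the vehicle replicates and 59 and 42 in the gemcitabine replicates, and its FPKM was 0.089 and 0.137 in vehicle and 1.95 and 1.41 after gemcitabine. No vehicle library came near either gemcitabine library. Summed over the libraries of each condition there were 8 and 101 fragments, a ratio per library total of 14.7 with an exact 95% interval of 7.21 to 35.1 that covers counting error only. The interval leaves out the spread between cultures. It is not a test, since the gene was chosen from these values. The fitted log2 fold change was 3.73 (SE 0.43), or 13.3-fold, and ran from 3.46 to 4.10 when single libraries were left out. Adding a constant of 1 to FPKM before taking logs, as one of the alternatives did, reduced it to 1.26. ZBED2 lies within the span of CD96 on the opposite strand and shares no exon with it. CD96 was counted at 7 and 5 fragments in vehicle and 6 and 7 after gemcitabine.

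**Figure D2:**
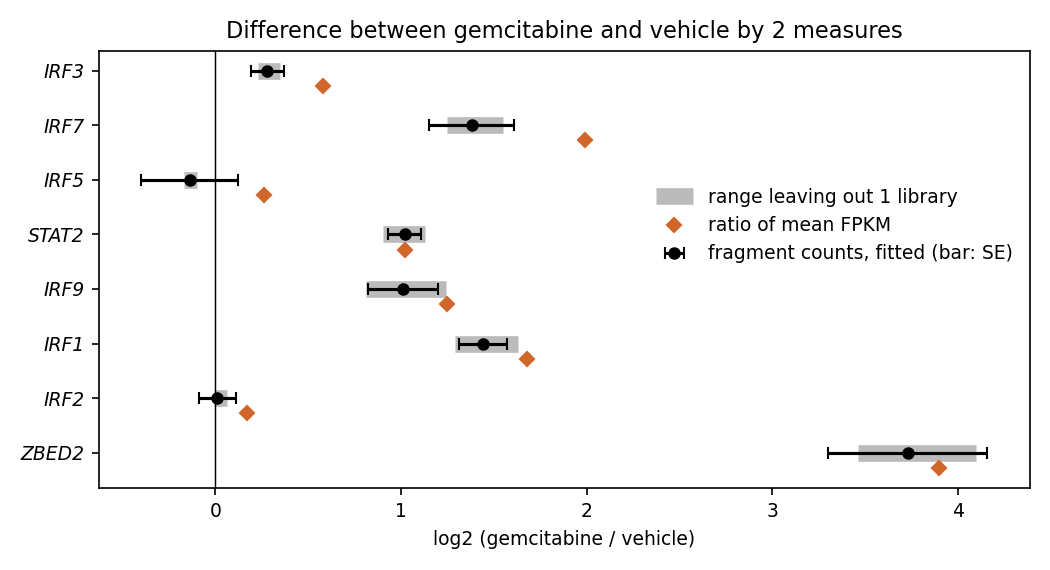
Difference between gemcitabine and vehicle for the 8 genes on the log2 scale, with the value fitted to fragment counts (black points, bars of 1 SE), its range when 1 library is left out (grey) and the log2 ratio of mean FPKM (orange diamonds). ZBED2 lies at 3.73, IRF1, IRF7, STAT2 and IRF9 lie between 1.01 and 1.44, and for IRF5 the fitted value and the FPKM ratio fall on opposite sides of 0.

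Without regard to the size of a difference, 6 of the 8 genes had both gemcitabine libraries above both vehicle libraries in scaled counts, 1 (IRF5) had both below, and 1 (IRF2) overlapped. Of all genes tested, 35.0% did not overlap in the upward and 34.7% in the downward direction, so that separation of 2 libraries from 2 was common in this table.

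The order of the levels per length changed between the conditions. In vehicle, mean FPKM placed IRF3 first (47.2), then STAT2 (18.4), IRF2 (13.4), IRF1 (8.79), IRF9 (6.87), IRF5 (1.35), IRF7 (1.32) and ZBED2 (0.113). The libraries of IRF1 and IRF9 overlapped, as did those of IRF5 and IRF7, and the other neighbours in this order were separate. After gemcitabine the order was IRF3 (70.5), STAT2 (37.5), IRF1 (28.2), IRF9 (16.4), IRF2 (15.1), IRF7 (5.24), ZBED2 (1.68) and IRF5 (1.62). Here IRF9 overlapped IRF2 and ZBED2 overlapped IRF5. IRF3 and STAT2 kept the first and second places, while IRF1 moved above IRF2 and ZBED2 reached the level of IRF5.

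For each of the 8 genes the other gene with the most similar pattern over the 4 libraries was found by the Euclidean distance between deviations of log2 CPM from the gene's mean. The nearest to ZBED2 was NEU4, at a distance of 0.5 and with 5 and 12 fragments in vehicle and 75 and 58 after gemcitabine, and no gene lay within 0.2 of ZBED2. The nearest to IRF1 was SERTAD1 at 0.11, with 17 genes within 0.2. ITGB3 was nearest to IRF7 (0.057, 26 genes within 0.2), PTK6 to IRF9 (0.041, 23 genes) and MLANA to STAT2 (0.032, 81 genes). For the genes that differed little, many others were as close, with 1804 genes within 0.2 of IRF3 (nearest ILK, 0.0093), 3622 of IRF2 (nearest MARCHF6, 0.0054) and 3383 of IRF5 (nearest PSMD1, 0.016). With 4 libraries such likeness is a description of 1 contrast.

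DNaseI-seq is an assay the choice of the genes did not use, and it was compared without a test because each condition had 1 library. The deposited lists held 9606 peaks for vehicle and 10695 for gemcitabine on hg19. A peak was assigned to a gene when it came within 5 kb of any annotated start. In vehicle 3 of the 8 genes had such a peak (IRF3, IRF9 and STAT2), against 33.9% of the 14512 tested genes with a position. After gemcitabine 4 had one (the same 3 genes and IRF1), against 39.0%. A peak after gemcitabine without one in vehicle was found for 1 of the 8 genes, IRF1, and for 12.9% of the tested genes. No peak lay within 5 kb of a start of IRF2, IRF5, IRF7 or ZBED2 in either list, whether their fitted difference was large (ZBED2 3.73, IRF7 1.38) or not. To raise sensitivity the paper added PANC1 peaks from ENCODE, which were not used here. Absence from these lists therefore does not show that a start was closed.

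At STAT2 (chr12:56735381-56753987, minus strand, hg19) both conditions had a peak over the first exon and the start. The vehicle peak at chr12:56753638-56754695 had a score of 98.82, and the gemcitabine peak at chr12:56753643-56754519 had a score of 191.74. At IRF9 (chr14:24630443-24637252, plus strand, hg19) both peaks likewise covered the first exon and the start. There the vehicle peak, chr14:24630131-24630554, had the higher score, 124.04, and the gemcitabine peak, chr14:24629976-24630823, scored 70.09. The pair of ISGF3 genes thus had open starts in both conditions, with scores in opposite order. Scores were set within each library and their difference has no replicate check. The GAS match printed for IRF9 lies at chr14:24630411-24630419 in hg19, inside both peaks.

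At IRF3 (chr19:50162826-50169132, minus strand, hg19) the peaks of the conditions did not overlap. The vehicle peak, chr19:50168832-50169500 with a score of 80.85, held the canonical start of IRF3 and the start of BCL2L12 on the opposite strand, so it belongs to both genes. The gemcitabine peak, chr19:50167423-50168108 with a score of 55.51, began 1006 bases downstream of the canonical start, over exon 2, and its midpoint was 15 bases from another annotated start of IRF3. Its score was close to the lowest in the list, which was 50.

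At IRF1 (chr5:131776132-131844411, minus strand, hg19) vehicle had no peak within 5 kb of a start, and gemcitabine had 1 at chr5:131831129-131832499 with a score of 88.33. Its nearer edge lay 4664 bases upstream of the canonical start, and its midpoint was 345 bases from the start of another annotated IRF1 transcript. The GAS and kB matches printed for IRF1 precede the canonical start, and no peak in either list covered that start. The middle 300 bases of the peak are shown because this was the only region near the 8 genes that was listed after gemcitabine without any peak of the gene in vehicle. They are chr5:131831665-131831964 in hg19, written on the plus strand, lie outside the canonical IRF1 transcript, and held no match to the ISRE, GAS or kB sequences. Overlap with exons of other transcripts was not examined.
IRF1 peak: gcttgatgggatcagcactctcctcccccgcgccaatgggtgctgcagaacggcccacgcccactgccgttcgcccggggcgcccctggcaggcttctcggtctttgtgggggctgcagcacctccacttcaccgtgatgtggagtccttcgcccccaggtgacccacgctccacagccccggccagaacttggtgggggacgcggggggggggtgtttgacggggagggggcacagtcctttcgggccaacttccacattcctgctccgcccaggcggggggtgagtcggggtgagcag

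**Figure D3:**
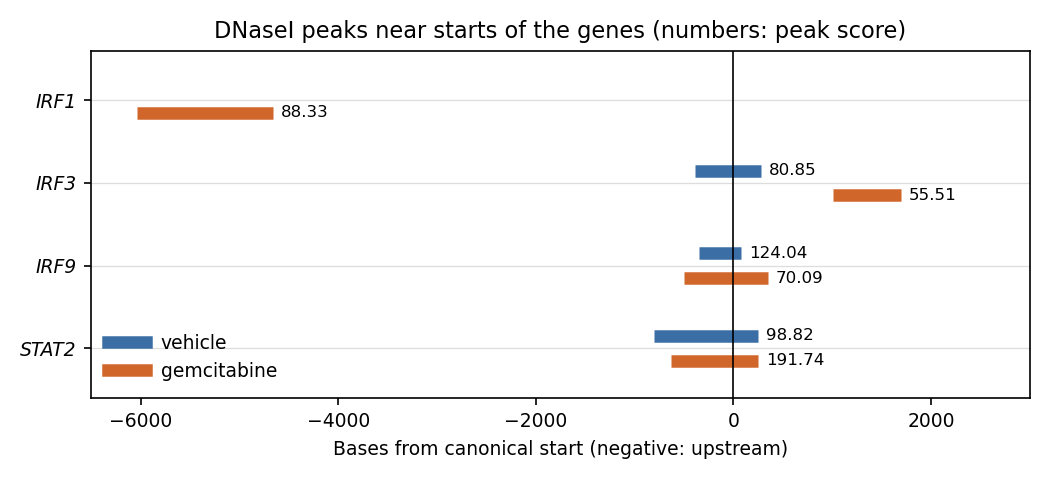
DNaseI peaks near starts of IRF1, IRF3, IRF9 and STAT2, by distance in bases from the canonical start with upstream to the left, for vehicle (blue) and gemcitabine (orange), with each peak's score beside it. At IRF9 and STAT2 both peaks cover the canonical start, at IRF3 only the vehicle peak covers the canonical start, the other lying at another annotated start, and the single peak of IRF1 ends 4664 bases upstream.

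Matches to 3 sequences were counted on both strands in windows from 250 bases before to 50 after each RefSeq start. Windows were given for 5 of the 8 genes (IRF1, IRF5, IRF9, STAT2 and ZBED2), and the others, IRF2, IRF3 and IRF7, had no entry. IRF5 had several windows. The shares of promoters below are per window, whereas the 8 genes are counted by gene. The ISRE core, GAAA and GAAA with any 2 bases between them, was in none of the 5 and in 3.57% of 35116 promoters. GAS, TTCNNNGAA, was found for IRF1 and IRF9 and in 7.66% of promoters. The kB consensus was found for IRF1 and in 5.91%. In the middle 300 bases of the DNaseI peaks GAS occurred in 11.9% of vehicle and 11.5% of gemcitabine peaks. Of the 7 peaks near the 8 genes the 2 at IRF9 held it. These 2 peaks overlap and the match is the same bases in both, so they are not separate sites. A match describes these letters in this window and not a bound site.

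The genes around these factors in the interferon pathway were counted in lists written from general knowledge, with earlier results of these data known. Of 130 listed genes 127 were in the table and 95 were tested. Of these, 26 (27.4%) were called higher and 2 lower, and their median log2 fold change was 0.28, beside 5.69% and 4.43% called and a median of 0.0068 over all genes tested. Pathway calls were fewer in limma fits to FPKM, where 5 to 8 of the listed genes were called higher with a constant of 0.1 or without a filter.

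The interferons themselves, the ligands of the pathway, were almost undetected. Of 21 ligand genes 17 were listed at 0 in all 4 libraries and 1 was tested, IFNE, with 24 and 27 fragments in vehicle and 24 and 12 after gemcitabine (log2 fold change -0.39, SE 0.38, edgeR adjusted p = 0.459). Among 6 receptor subunits none was called, although 4 were higher with an edgeR adjusted p under 0.05, as were 18.5% of all genes tested, and their median log2 fold change was 0.27. Closest to the fold criterion were IL10RB, a subunit of the interferon lambda and interleukin 10 receptors, and IFNLR1. Both were picked after their values were seen. IL10RB had a log2 fold change of 0.58 (SE 0.08, edgeR adjusted p = 6.43e-05) and IFNLR1 one of 0.58 (SE 0.17, edgeR adjusted p = 0.0134). The paper, with the same thresholds on Cuffdiff results, names IL10RB among its differentially expressed genes, so this call depended on the method. IFNGR2, a subunit of the interferon gamma receptor and the most abundant of the 6, had a log2 fold change of -0.01 (SE 0.08, edgeR adjusted p = 0.936). None of the 3 receptor kinases was called, and TYK2 had a log2 fold change of 0.36 (SE 0.07, edgeR adjusted p = 6.28e-04), below the fold criterion.

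Upstream of IRF3, IRF5 and IRF7, 3 of 13 tested activators were called higher and none lower. RIGI, a cytosolic sensor of RNA, rose from 186 and 214 fragments to 528 and 469 (log2 fold change 1.43, SE 0.10, edgeR adjusted p = 2.16e-07). STING1, the adaptor of cytosolic DNA sensing, rose by a log2 fold change of 1.17 (SE 0.09), and TLR3, a receptor for double-stranded RNA, by 0.88 (SE 0.16). IRAK1, a kinase of MYD88 signalling and the most abundant of the list, had a log2 fold change of -0.37 (SE 0.07) and was not called. Among 10 genes of negative feedback only SOCS1, an inhibitor of receptor kinases, was called, with 20 and 14 fragments in vehicle and 39 and 35 after gemcitabine (log2 fold change 1.23, SE 0.34, edgeR adjusted p = 0.0103), and it was not called by DESeq2 or without vehicle replicate 2. PIAS4, the most abundant of that list, stood at 0.25 (SE 0.08).

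In the families of the 8 genes few others were called. None of the other 6 STATs was, and STAT3, the most abundant, had a log2 fold change of -0.15 (SE 0.07, edgeR adjusted p = 0.107). STAT4 (log2 fold change 1.72, SE 0.53, edgeR adjusted p = 0.0184) and STAT5B (-0.58, SE 0.07, edgeR adjusted p = 1.22e-05) passed adjusted p but not all the other criteria. Of the listed IRFs outside the 8 genes, none reached 10 fragments over the 4 libraries. Among cofactors that bind IRF2, IRF2BP2 fell from 1625 and 1560 fragments to 789 and 935 (log2 fold change -0.77, SE 0.09, edgeR adjusted p = 9.17e-06) and IRF2BPL rose by 0.60 (SE 0.10). IRF2BPL was not called without vehicle replicate 2 or without gemcitabine replicate 2. Of 4 other ZBED genes tested, ZBED4 fell from 815 and 781 fragments to 411 and 483 (log2 fold change -0.72, SE 0.10, edgeR adjusted p = 3.76e-05), and ZBED5, the most abundant, had a value of 0.10 (SE 0.08). None of the 3 limma fits to FPKM called IRF2BP2, IRF2BPL or ZBED4.

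Among targets of ISGF3, 15 of 31 tested genes were called higher and none lower, and the median log2 value was 0.74. The 5 largest were antiviral effectors at low levels in vehicle. OASL rose by a log2 fold change of 2.63 (SE 0.28), IFIT2 by 2.55 (SE 0.26), IFIT3 by 2.28 (SE 0.21) and SAMD9L by 2.18 (SE 0.20), with edgeR adjusted p values of 6.45e-06, 4.59e-06, 1.77e-06 and 1.46e-06. OAS1, with 2 and 3 fragments in vehicle and 14 and 9 after gemcitabine, had a value of 2.26 (SE 0.64, edgeR adjusted p = 0.0123), which DESeq2 and 3 of the 4 fits that left out a library did not call. SAMD9L was not called without vehicle replicate 2 or without gemcitabine replicate 2. IFITM3, the most abundant target, was not called, with 643 and 556 FPKM in vehicle and 551 and 539 FPKM after gemcitabine (log2 fold change -0.26, SE 0.07).

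Among targets of IRF1, 6 of 18 tested genes were called higher and none lower, with a median of 0.37. The guanylate-binding protein GBP3 rose by a log2 fold change of 1.95 (SE 0.13, edgeR adjusted p = 1.48e-07), GBP1 by 1.12 (SE 0.07) and GBP2 by 0.72 (SE 0.09). The adhesion molecule ICAM1 rose by 0.85 (SE 0.10) and the immunoproteasome subunit PSMB9 by 0.77 (SE 0.14). GBP2 was not called without gemcitabine replicate 2, and neither GBP2 nor GBP3 was called in any of the 3 limma fits to FPKM. GBP3 had 5.8 and 3.92 FPKM in vehicle and 10.6 and 20.5 FPKM after gemcitabine. CASP4, an inflammatory caspase and the most abundant target tested, had a value of 0.36 (SE 0.09) and was not called.

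**Figure D4:**
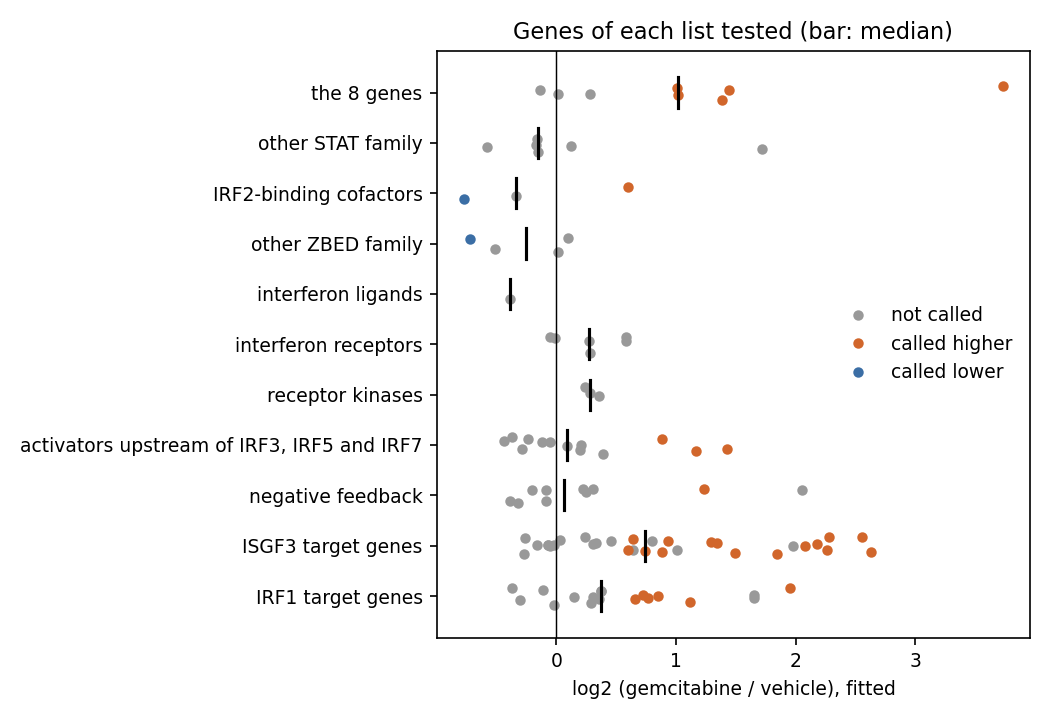
Fitted log2 ratio of gemcitabine to vehicle for the 8 genes and for each tested gene of the pathway lists, with genes called higher in orange, called lower in blue and not called in grey, and a black bar at each list's median. The medians are 1.01 for the 8 genes, 0.74 for ISGF3 targets and 0.37 for IRF1 targets. No receptor or receptor kinase is called in this edgeR fit.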

How the data were processed

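PANC1 RNA-seq (2 vehicle and 2 gemcitabine libraries) and DNaseI-seq (1 library each) were analysed. Single-end reads were mapped by the authors with TopHat2 2.0.8 (hg19), and Cuffdiff 2.0.2 quantified protein-coding GENCODE genes (versions from the submitters' processing notes). The deposited table gives estimated counts of fragments (86.8% whole within 1e-09, the rest divided among loci) and FPKM, which the authors obtained from Cuffdiff and which depend on the isoforms it assigned. The 2 columns scaled by Cuffdiff were not used. The authors called DNaseI peaks with MACS at p = 1e-05, and the deposited score of each peak was used only to describe and filter peaks.

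Identifiers were matched to current symbols for 19619 of 20461 genes. Estimated counts were rounded. The 14854 genes whose fragments summed to 10 or more entered edgeR 4.0.16 (R 4.3.3, quasi-likelihood test), with TMM factors of 0.959 to 1.05, no covariate and Benjamini-Hochberg adjustment. SE were derived from the same fit. DESeq2 1.42.0 and limma 3.58.1 gave alternatives. With 2 libraries in each condition, edgeR p-values weigh a difference against the spread between these samples, which is estimated partly from all genes. To find any library deposited more than once, replicates were compared by counts, and neither pair was identical or agreed within counting noise (mean chi-square per gene 2.17 in vehicle and 5.16 after gemcitabine).

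The 8 genes and the pathway lists were chosen with earlier results of these data known. All 8 genes are named. Of each list, up to 5 called genes with the largest change and the most abundant gene are named, as is the gene most alike to each of the 8 (mean of at least 1 CPM). Some genes of the lists are not reported here by name. Gene positions are from GENCODE lifted to hg19 and promoters from RefSeq on GRCh38.p14. Coordinates were not converted between builds.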

Additional observations from a re-analysis of the deposited data

How the results depend on the processing

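Calls of the 8 genes numbered 5 in the analysis as reported and under DESeq2, other size factors, library totals, no count filter, filterByExpr and the replicate block, in which the table index of the libraries served as a block. No pairing by the index was detected (correlation of deviations -0.02 over all genes tested, those with few fragments included). This value cannot exclude paired cultures. With the replicate block 844 genes were called higher and 661 lower. On FPKM fewer genes passed. With limma on log2(FPKM + 1) 4 of the 8 genes were called (without IRF9), and 293 genes were called lower with none of the pathway genes among them. With limma on log2(FPKM + 0.1) 2 of the 8 (IRF7 and ZBED2), 5 pathway genes higher, 0 lower, and 100 genes higher and 13 lower in all were called. With limma on log2(FPKM + 1) and no filter the counts were 1 (IRF7), 8, 0, 221 and 75. Library totals in place of TMM moved the median of all genes from 0.01 to 0.12 and the share of called genes that were higher from 56.2% to 73.6%, with 417 genes called lower. With adjusted p alone, 2750 genes were called higher and 2975 lower, and 44 pathway genes higher and 12 lower. Of the 8 genes 6 were then higher, with IRF3 added, beside 18.5% of all genes tested. Leaving out 1 library gave 674 to 923 genes higher, 594 to 771 lower and 4 to 5 of the 8 genes. With a DNaseI score of at least 100, 1 of the 8 genes had a vehicle peak (IRF9) and 1 a gemcitabine peak (STAT2). The other windows and overlaps gave 3 and 4, as reported. The causes of these differences were not tested. Over 13 alternatives the log2 fold change ran from 1.29 to 1.67 for IRF1, 1.25 to 1.91 for IRF7, 0.81 to 1.24 for IRF9, 0.90 to 1.13 for STAT2, 1.26 to 4.10 for ZBED2, 0.23 to 0.56 for IRF3, -0.01 to 0.19 for IRF2 and -0.17 to 0.25 for IRF5. Depth limits ZBED2 in vehicle, at 3 and 5 fragments.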
